A study of Saccharomyces cerevisiae with 94 samples.

Results

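The step between late S phase and G2 was examined in the SSDDCS strain of budding yeast, Saccharomyces cerevisiae, as the difference between 40 and 30 min after release of synchronised cultures. It rests on 8 RNA-seq libraries of the 94 analysed, 4 at 40 min and 4 at 30 min, taken by strain, time and replicate number from the labels and paired by replicate number because each culture was sampled repeatedly. The series asks how a genome-wide advance in replication timing affects gene expression within 1 cell cycle, and covers 12 time points in SSDDCS and in a control strain, sml1Δ. Both are haploid MATa strains of the W303 background with the alleles can1-100, rad5-535, ade2-1, trp1-1, ura3-1, leu2-3, 112 and his3-11, 15, and in both SML1, which encodes an inhibitor of ribonucleotide reductase, is deleted. SSDDCS carries sml1_delta::HphNT and additional copies of 6 replication initiation factors driven by the divergent, galactose-inducible GAL1-10 promoter: Sld7 with Cdc45 at leu2, SLD3-A with Dbf4-A at his3, and Sld2 with Dpb11 at trp1, marked with LEU2, HIS3 and TRP1. The sml1Δ strain carries sml1_delta::URA3 and none of these constructs. All cultures, controls included, were arrested in G1 by the pheromone alpha factor, received galactose before release, and were let go into galactose medium. Each strain is a single genotype and every value is an average over a whole culture, so a change in the share of cells at a given stage and a change in RNA per cell cannot be told apart.

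In the budding yeast cycle, transcription runs in waves. At the G1/S boundary the factors MBF and SBF switch on the genes for DNA precursors and replication proteins, histone genes are transcribed while DNA is being copied, and from G2 the forkhead factors Fkh1 and Fkh2 with Mcm1 and Ndd1 switch on the CLB2 cluster, a set of genes that drive mitosis and prepare cell division. Cdc45, Sld2, Sld3, Sld7, Dpb11 and Dbf4 are limiting for the firing of replication origins, the sites at which copying of a chromosome begins.

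The 8 libraries held between 8611450 and 15343039 reads in genes, with size factors of 0.754 to 1.33, and levels are given throughout as normalised counts, the reads of a gene over its library's size factor. Differences are on the log2 scale after adding 1, 40 min minus 30 min. The 6 factors had between 3493 and 32684 normalised reads on average at 40 min in SSDDCS, against between 184 and 1072 in sml1Δ at 40 min, as their genotypes provide. By their profile over all genes, 1 of the 4 libraries at 40 min lay nearest to the other SSDDCS libraries of its own time, and cultures 2 and 4 lay nearest to 35 min and culture 3 to 45 min. Of the libraries at 30 min, culture 3 lay nearest to 35 min and the others to 30 min. These margins were small, for example a root mean square log2 distance of 0.219 to 35 min against 0.224 to 40 min in culture 2, so counts are also given without each culture.

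In all, 1288 of 6404 genes (20.1%) differed between 40 and 30 min at a limma adjusted p under 0.01. Of these, 599 genes (9.35% of those tested) rose, with a median log2 difference of 0.38, and 689 genes (10.8%) fell, with a median of -0.46. All 599 that rose were higher at 40 min in each of the 4 cultures, and 687 of the 689 that fell were lower in each. The values of the 8 libraries did not overlap for 427 of the genes that rose and 542 of those that fell, against 697 (10.9%) and 936 (14.6%) without overlap in each direction among all genes tested. Large changes were mostly declines, with 17 genes higher and 47 lower by at least 2-fold. Of the genes called, 46.5% were higher at 40 min, and this share was 29.6% when the libraries were instead scaled to equal totals, which gave 389 genes that rose and 925 that fell. For 1283 of the called genes (99.6%) the mean at 35 min lay between those at 30 and 40 min, against 72.2% of all genes. Called genes were selected for a gap between these same 2 means, so a higher share among them follows in part from the choice. Without cultures 1, 2, 3 and 4 in turn the count was 606, 713, 737 and 845, and it was 484 when the pairing of libraries by culture was left out of the model. A paired fit on the 30 and 40 min libraries of SSDDCS alone called 1798 genes, of which 1125 were among the 1288.

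HOF1 (YMR032W, chromosome XIII, 335298 to 337307, plus strand), an F-BAR protein of the cytokinetic ring, had 775, 412, 709.8 and 711 at 40 min, against 98.4, 108, 110.0 and 178 at 30 min. Every library at 40 min lay above every library at 30 min, with culture 2 the lowest at 40 min and culture 4 the highest at 30 min. The log2 difference of HOF1 was 2.39 (limma SE 0.41, adjusted p = 8.28e-06), the largest of the 12 that the naming rule selected. MRH1 (YDR033W), a plasma membrane protein, had 5172, 4437, 5418 and 5329 at 40 min, against 771, 1271, 1104 and 1883 at 30 min. Its difference was 2.09 (limma SE 0.29, adjusted p = 1.65e-07). EIS1, a protein of the eisosomes of the plasma membrane, is the divergent neighbour of HOF1, with 554 bases between the coding regions, and had 1128, 734, 966 and 1189 at 40 min, against 259.6, 406, 279.9 and 408 at 30 min. All 3 genes were thus higher in each culture, and for EIS1 the difference was 1.57 (limma SE 0.28, adjusted p = 1.69e-05). The others of the 12 were MMR1, which carries mitochondria into the bud (1.53), the chitin synthase of the division septum CHS2 (1.43), YMR001C-A (1.26), the histone deacetylase HST3 (1.26), AIM20 (1.25), the transcription factor SWI5 (1.22), the haspin-like kinase ALK1 (1.21), CDC20, which activates the anaphase-promoting complex (1.19), and the transcription factor SFG1 (1.12). YMR001C-A lies 210 bases upstream of CDC5 on the same strand, and because the counting is not stated to use strand or to separate neighbours its reads may be shared. It lost its call without culture 1, 2 or 3, with adjusted p of 0.0217 to 0.0378, and the other 11 kept theirs without each culture. The rule required values without overlap, so their separation is a description of the choice.

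The plot of 12 genes by culture shows 6 genes that were higher at 40 min and 6 that were lower.

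**Figure D1:**
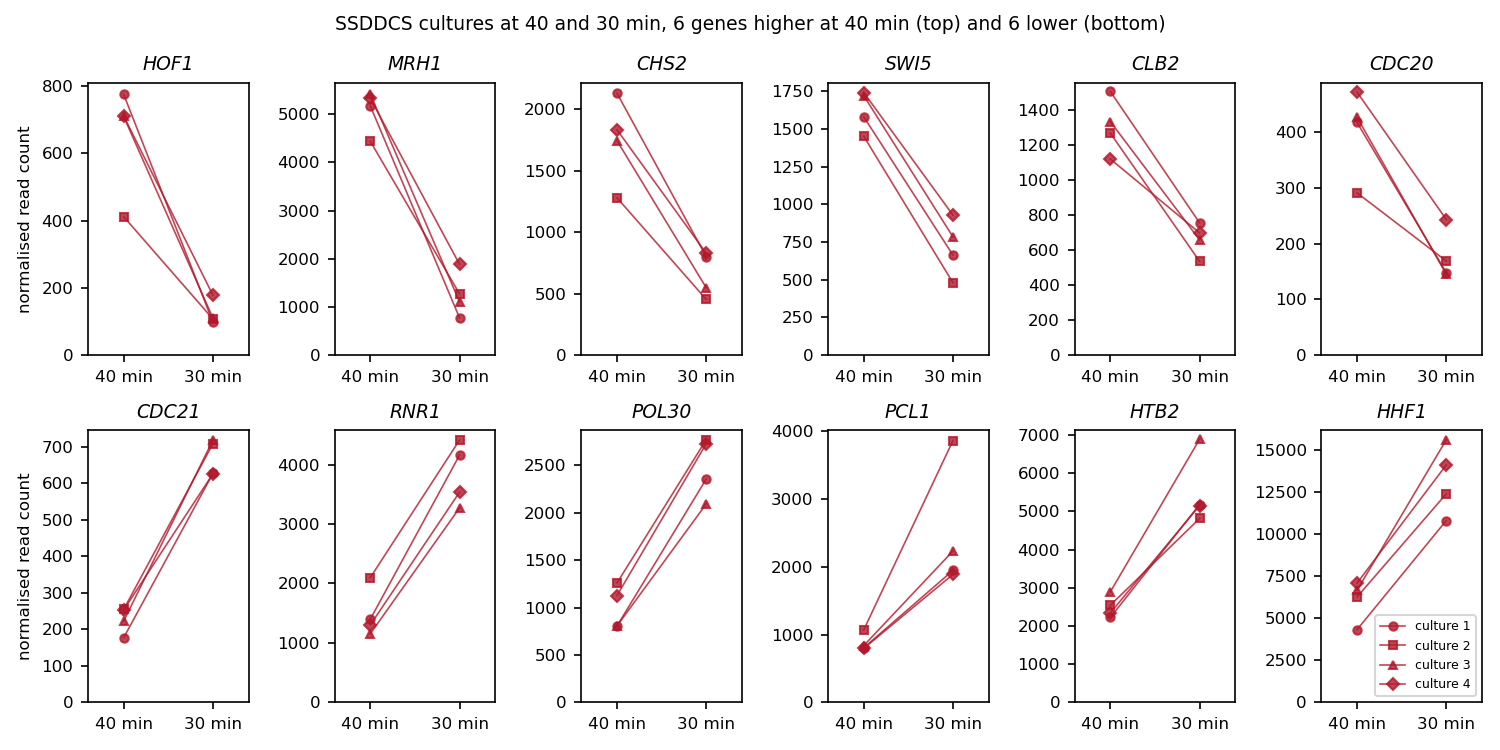
Normalised read counts (vertical axis, starting at 0) of 12 genes in the 4 SSDDCS cultures at 40 min (left of each panel) and 30 min (right), with a line joining the libraries of 1 culture. HOF1, MRH1, CHS2, SWI5, CLB2 and CDC20 were higher at 40 min in all 4 cultures, and CDC21, RNR1, POL30, PCL1, HTB2 and HHF1 were lower in all 4.

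Members of the CLB2 cluster rose together. Of its 20 genes, 16 rose and 0 fell, against 9.35% and 10.8% of all genes, and the median log2 difference was 1.01, against -0.03 over all genes tested. By culture this median was 1.01, 0.98, 0.98 and 0.72. Without cultures 1, 2, 3 and 4 in turn, 14, 16, 15 and 15 members were called. CLB2, the major mitotic cyclin, had 1508, 1269, 1335 and 1121 at 40 min, against 756, 536, 659 and 699 at 30 min. Its values did not overlap, and the difference was 0.98 (limma SE 0.19, adjusted p = 4.85e-05). SWI5, which directs transcription at the end of mitosis, had 1580.3, 1451, 1721 and 1741 at 40 min, against 663, 480.0, 784 and 928 at 30 min, again with no overlap. The difference of SWI5 was 1.22 (limma SE 0.25, adjusted p = 0.000103). The polo kinase gene CDC5 averaged 1830.2 ± 124 at 40 min and 1028 ± 98.9 at 30 min (SD, n = 4 each), a difference of 0.83 (limma SE 0.15, adjusted p = 2.45e-05). CDC20 had 418, 291, 427 and 472 at 40 min, against 148, 169, 145 and 244 at 30 min, and its difference was 1.19 (limma SE 0.24, adjusted p = 9.37e-05). Among genes of cytokinesis, CHS2 had 2131, 1280.1, 1745 and 1834 at 40 min, against 800.4, 453, 548 and 829 at 30 min. In CHS2 too the lowest library at 40 min, that of culture 2, lay above the highest at 30 min. MYO1, the myosin of the ring, differed by 0.79 (adjusted p = 0.000531, and 0.0135 without culture 1), IQG1 by 0.76 (adjusted p = 3.03e-07), and the bud site gene BUD4 by 0.74 (adjusted p = 0.000133). MOB1 (1.07, adjusted p = 3.59e-07) and SPO12 (1.05, adjusted p = 1.46e-06) act in mitotic exit. KIN3, a kinase gene, differed by 1.04 (adjusted p = 0.00235), and lost its call without culture 1, 3 or 4, with adjusted p of 0.0114 to 0.0414.

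The 4 members not called differed among themselves. CLB1, which encodes another mitotic cyclin, had 1331, 1351, 1601 and 1153 at 40 min, against 779.5, 722, 997 and 738 at 30 min. These values did not overlap, and at a difference of 0.75 its adjusted p of 0.0101 lay just above the limit of 0.01. It was called by DESeq2 (adjusted p = 0.00397) and edgeR (adjusted p = 0.00432) on the recovered reads. BUD3 averaged 1150.3 ± 87.7 at 40 min and 1061 ± 92.6 at 30 min (SD, n = 4 each), with a difference of 0.12 (adjusted p = 0.42). AMN1 differed by 0.16 (adjusted p = 0.629). DBF2, a kinase of the mitotic exit network, had 423, 422, 415 and 614 at 40 min, against 375, 454, 365 and 607 at 30 min. The groups overlapped, with culture 4 the highest at both times, and the difference was 0.07 (limma SE 0.20, adjusted p = 0.816). In sml1Δ, DBF2 averaged 458 ± 128 at 40 min and 231 ± 42.9 at 30 min, a difference of 0.96. The strain difference for DBF2 was -0.90 (limma SE 0.28, adjusted p = 0.0991) and did not pass the limit.

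Promoter windows are shown for genes that led each group, since the regulators named above bind short motifs. Each window runs over the 300 bases that end 101 bases before the start codon, from the RefSeq R64 assembly, 5′ to 3′ on the coding strand, with matches in capitals. For HOF1 (chrXIII:334898-335197, plus strand) and SWI5 (chrIV:750843-751142, minus strand) the capitals mark GTAAACA, the core bound by forkhead factors.
HOF1: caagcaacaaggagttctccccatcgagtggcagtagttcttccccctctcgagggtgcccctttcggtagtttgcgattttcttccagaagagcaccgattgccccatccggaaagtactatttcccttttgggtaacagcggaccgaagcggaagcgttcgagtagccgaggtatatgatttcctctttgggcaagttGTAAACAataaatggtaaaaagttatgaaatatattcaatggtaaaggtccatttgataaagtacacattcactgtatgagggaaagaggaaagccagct
SWI5: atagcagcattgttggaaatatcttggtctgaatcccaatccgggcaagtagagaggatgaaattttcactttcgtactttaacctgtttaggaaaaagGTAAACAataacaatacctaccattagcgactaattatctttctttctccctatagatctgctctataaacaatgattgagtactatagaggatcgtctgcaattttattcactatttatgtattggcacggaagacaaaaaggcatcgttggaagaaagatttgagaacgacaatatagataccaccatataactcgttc
Of all 5808 promoter windows, 6.30% held GTAAACA on either strand, against 10 of the 20 CLB2 cluster genes (50%) and 5 of the 16 windows of genes that rose at least 2-fold (31.2%). The windows of MRH1, CHS2, CLB2 and CDC20 held no such match. Over all windows the median difference was -0.03 with the motif and -0.02 without it.

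Of 15 mitotic exit genes, 5 rose and 0 fell, against 9.35% and 10.8% of all genes, with a median of 0.06. These were CDC5, CDC20, MOB1, SPO12 and TEM1, a GTPase of the mitotic exit network, and the first 4 are also in the CLB2 cluster. The same number was called without each culture. Among 17 kinesin and microtubule-binding genes 1 rose and 2 fell (median -0.18), 5.88% and 11.8% of the list, near the 9.35% and 10.8% of all genes. ASE1, which bundles spindle microtubules, differed by 0.66 (adjusted p = 0.00115), IRC15 by -0.46 (adjusted p = 0.000259) and the gamma-tubulin gene TUB4 by -0.42 (adjusted p = 0.00849). ASE1 lost its call without culture 1 or 3, with adjusted p of 0.024 and 0.0231, and TUB4 without each culture, with adjusted p of 0.0178 to 0.153. Among 24 kinetochore and passenger genes 2 rose and 3 fell (median -0.13), 8.33% and 12.5% of the list, again near the shares of all genes. NUF2 rose (0.62, adjusted p = 5.43e-05), as did BIR1 (0.25, adjusted p = 0.0034), while MIF2, the homologue of CENP-C, fell (-0.66, adjusted p = 0.000207), as did MTW1 (-0.49, adjusted p = 0.00363). MTW1 was lost without each culture, with adjusted p of 0.011 to 0.0415, and BIR1 without culture 1, 2 or 3, with adjusted p of 0.0235 to 0.042.

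Of 17 septin and bud neck genes, 1 rose, BUD4, and 5 fell (median -0.07), 5.88% and 29.4% of the list. Over all genes these shares were 9.35% and 10.8%. The bud neck kinases GIN4 (-0.88, adjusted p = 3.16e-05) and KCC4 (-1.11, adjusted p = 0.00138) fell, as did AXL2, a marker of the axial bud site (-1.02, adjusted p = 9.03e-05). KCC4 was lost without culture 1 or 3, with adjusted p of 0.0222 and 0.02. Of 24 cell wall genes, 2 rose, CHS2 and the glucanase gene SCW4 (0.63, adjusted p = 5.58e-05), and 5 fell. These were 8.33% and 20.8% of the list, with the share that rose near that of all genes. SCW4 had 8109, 6109, 7678 and 6376 at 40 min, against 5018, 4039.8, 4696 and 4411 at 30 min, with no overlap. TOS6 (-1.33), a cell wall protein, and CRH1, a glycosidase that links chitin to glucan (-1.21), were the members that fell most. TOS6 lost its call without each culture, with adjusted p of 0.0267 to 0.0398, and CRH1 without culture 1, 2 or 3, with adjusted p of 0.0197 to 0.0317.

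Genes of the G1/S wave fell together. Of 30 genes, 26 fell and 0 rose, against 10.8% and 9.35% of all genes, and the median log2 difference was -0.85. By culture it was -0.91, -0.75, -0.89 and -0.86. All 30 differences were below 0, and 18, 20, 17 and 18 were called without cultures 1, 2, 3 and 4 in turn. CDC21 (YOR074C, chromosome XV, 466675 to 467589, minus strand), the thymidylate synthase, had 177, 255, 223 and 253 at 40 min, against 628, 709, 719 and 627 at 30 min. The highest value at 40 min was under that of any library at 30 min, and the difference of -1.57 (limma SE 0.25, adjusted p = 2.1e-06) was the lowest of all genes counted. RNR1, the large subunit of ribonucleotide reductase, had 1400.0, 2100.0, 1155 and 1304 at 40 min, against 4160.2, 4414, 3272 and 3536 at 30 min. Culture 2 was the highest of the 4 at both times and the groups did not overlap, with a difference of -1.40 (limma SE 0.31, adjusted p = 0.000371). For the largest declines the naming rule also required values without overlap, so the separation of CDC21 and RNR1 is a description of the choice. POL30, which encodes the sliding clamp PCNA, had 806, 1259, 806 and 1127 at 40 min, against 2355, 2770.0, 2092 and 2728 at 30 min. Its difference was -1.33 (limma SE 0.25, adjusted p = 3.42e-05). RFA1, the large subunit of the single-strand binding protein RPA, averaged 548 ± 104 at 40 min and 1354 ± 184 at 30 min (SD, n = 4 each), a difference of -1.31 (limma SE 0.24, adjusted p = 2.37e-05). SVS1 differed by -1.42 (adjusted p = 5.43e-05), and ACM1, an inhibitor of Cdh1 that is not on the list, by -1.41 (adjusted p = 0.000198). PCL1, a cyclin of the kinase Pho85, had 804, 1069, 837 and 796 at 40 min, against 1947, 3861, 2232 and 1888 at 30 min, and changed by -1.45 (limma SE 0.42, adjusted p = 0.00626), a call that was lost without each culture, with adjusted p of 0.0121 to 0.0587. YOR073W-A and YBR089W, whose systematic names place them beside CDC21 and POL30, changed by -1.45 and -1.33 and may hold reads of those genes.

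Of the cyclins, CLN2 fell (-1.23, adjusted p = 0.000202), as did the S phase cyclin CLB5 (-0.78, adjusted p = 0.000213). CLB5 had 243, 301, 259 and 247 at 40 min, against 426, 465, 475 and 430.2 at 30 min, values that lay in narrow and separate ranges. CLN1 (-0.76, adjusted p = 0.0096) and CLB6 (-0.71, adjusted p = 0.00752) were lost without each culture, with adjusted p of 0.021 to 0.0477 and 0.0141 to 0.0777. CLB3 (0.10, adjusted p = 0.342) and CLB4 (0.27, adjusted p = 0.247) did not pass the limit. Among 6 S/G2 transcription factor genes only HCM1, a forkhead factor of S phase, was called (16.7%, against 10.8% of all genes that fell). HCM1 had 713, 769, 651 and 610.4 at 40 min, against 1107, 1326, 869 and 940.4 at 30 min, without overlap, and changed by -0.61 (limma SE 0.12, adjusted p = 4.77e-05). The genes for the factors that act on the CLB2 cluster showed small differences, with -0.12 for FKH1, -0.10 for NDD1 and 0.02 for FKH2. The sign for FKH2 turned when library totals were made equal (-0.02) and without culture 2 (-0.03). WHI5 differed by -0.48 (adjusted p = 0.0228) and YHP1 by -0.30 (adjusted p = 0.285).

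The windows of CDC21 (chrXV:467690-467989, minus strand) and RNR1 (chrV:298550-298849, plus strand) show the motifs of this wave in capitals, ACGCGT, the element bound by MBF, and CACGAAA or its reverse complement, the element bound by SBF.
CDC21: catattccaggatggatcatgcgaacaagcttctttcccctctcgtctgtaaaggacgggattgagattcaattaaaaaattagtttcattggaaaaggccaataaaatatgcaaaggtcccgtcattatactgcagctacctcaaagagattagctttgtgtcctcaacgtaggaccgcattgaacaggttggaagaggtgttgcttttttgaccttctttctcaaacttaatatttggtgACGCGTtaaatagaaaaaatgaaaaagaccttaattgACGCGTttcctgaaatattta
RNR1: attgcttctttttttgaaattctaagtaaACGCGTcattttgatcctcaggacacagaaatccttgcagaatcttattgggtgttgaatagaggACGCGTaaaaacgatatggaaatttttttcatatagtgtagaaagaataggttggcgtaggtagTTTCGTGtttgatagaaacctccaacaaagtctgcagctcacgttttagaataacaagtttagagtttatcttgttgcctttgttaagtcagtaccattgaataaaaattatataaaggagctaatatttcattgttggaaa
ACGCGT was in 3.96% of all windows, in 15 of 30 G1/S genes (50%), in 13.6% of the 661 windows of genes that fell and in 1.06% of the 568 windows of genes that rose. Among the 40 windows of genes that fell by at least 2-fold, 15 (37.5%) held ACGCGT and 11 (27.5%) held CACGAAA, which was in 4.96% of all windows. Over all genes with a window, the median difference was -0.27 in the 230 with ACGCGT and -0.02 in the 5578 without it. The window of CLN2 held neither element.

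All 8 core histone genes fell, against 10.8% of all genes, with a median of -1.01 and differences between -1.13 and -0.85. Their summed values were 39905 to 58637 at 40 min and 88428 to 120655 at 30 min. HTB2, one of the H2B genes, had 2223, 2544, 2894 and 2343 at 40 min, against 5178, 4814, 6888 and 5152 at 30 min. HHF1, one of the H4 genes, had 4315, 6253, 6646 and 7075 at 40 min, against 10788, 12374, 15579 and 14088 at 30 min. In these and the other 6, the 4 values at 40 min lay below the 4 at 30 min. The difference was -1.13 (limma SE 0.30, adjusted p = 0.0024) for HTB2 and -1.13 (limma SE 0.29, adjusted p = 0.0019) for HHF1. The calls rested on all cultures together, since 1, 2, 1 and 3 histone genes were called without cultures 1, 2, 3 and 4 in turn, while every difference stayed below -0.7. HHT1, one of the H3 genes, was called in each of these fits, with a difference of -1.05 (limma SE 0.22, adjusted p = 0.000214) over all cultures. The other differences were -0.96 for HTA1, -1.05 for HTA2, -0.87 for HTB1, -0.85 for HHT2 and -0.94 for HHF2. The 8 genes form 4 divergent pairs, and near-identical copies may share reads, so single members are less certain than their sum. None of the 3 genes of histone variants and linker histone was called (median -0.16).

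Of 16 cohesion and condensin genes, 7 fell (43.8%) and 0 rose (median -0.30), against 10.8% and 9.35% of all genes. MCD1, the cleavable subunit of cohesin, had 506, 805, 471 and 474 at 40 min, against 1424, 1869, 1256 and 1288 at 30 min, with culture 2 well above the other 3 at 40 min, and changed by -1.39 (limma SE 0.32, adjusted p = 0.000615). PDS5 fell (-0.99, adjusted p = 6e-05), as did IRR1 (-0.92, adjusted p = 0.000283). SMC1, SMC3, ECO1 and SMC2 were the other members called. Of 14 MCM and licensing genes, MCM6 of the replicative helicase was higher (0.57, adjusted p = 0.00824) and ORC5 of the origin recognition complex lower (-0.36, adjusted p = 6.14e-05). Each was 7.14% of the list, below the shares of all genes. MCM6 was lost without each culture, with adjusted p of 0.0372 to 0.0549, and the median of the list was 0.08. Of 17 M/G1 and daughter cell genes, 1 rose, the G1 cyclin CLN3 (0.67, adjusted p = 0.00234), which was lost without culture 1, 2 or 3, with adjusted p of 0.0135 to 0.0331. The median of that list was -0.02, and the 5.88% that rose lay below the 9.35% of all genes.

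Placed in the whole course, the median level of the CLB2 cluster in SSDDCS, relative to its own mean over the course, took the values -0.86, -0.45, -0.06, 0.55, 0.94 and 1.25 over the 6 times between 20 and 45 min. The G1/S genes took the values 0.94, 0.61, 0.29, -0.18, -0.71 and -1.15 over the same times. Core histones reached 1.53 at 25 min, their highest mean, and stood at 1.31 at 30 min and 0.36 at 40 min. At 25 min each strain had 3 libraries, without culture 2. The 40 min libraries thus lay on the rising side of the CLB2 cluster and on the declining side of the other 2 groups. CDC21 and RNR1 were highest at 10 min, with means of 2521 and 22573, and HOF1 and MRH1 had their highest means at 60 min, 1931 and 24078.

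**Figure D2:**
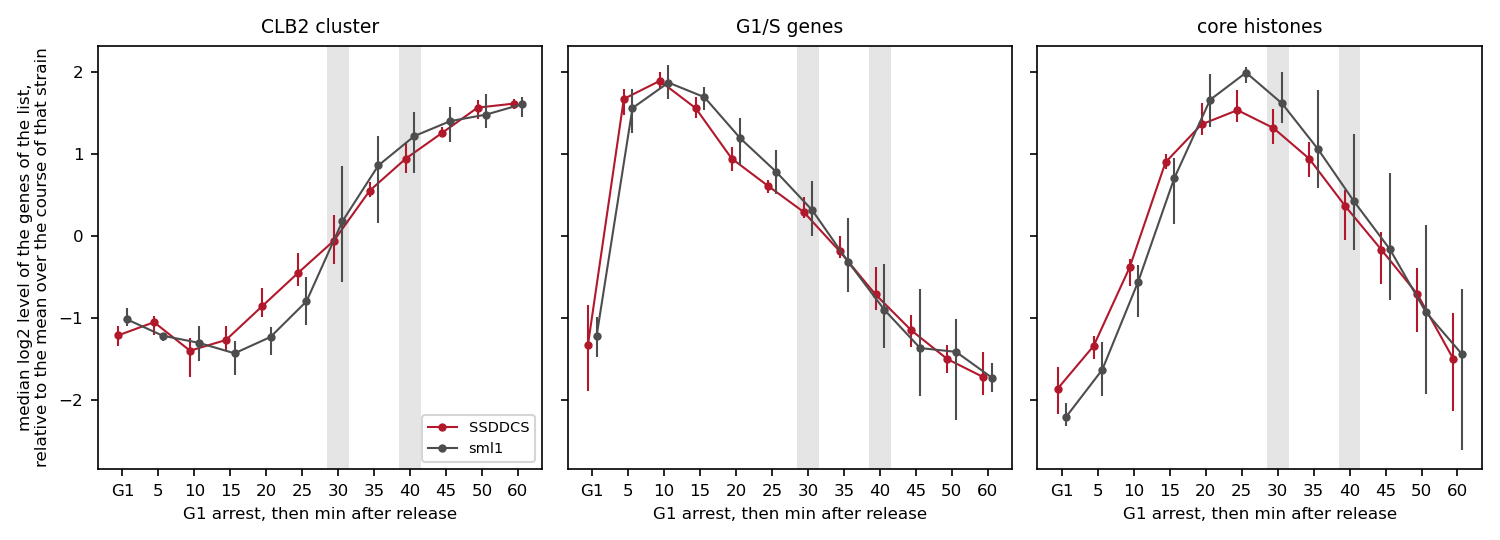
Median log2 level of the genes of each list relative to its mean over the course of the strain (vertical axis), in G1 and at 11 times after release (horizontal axis), as the mean of the cultures with bars for the lowest and highest culture, SSDDCS in red and sml1Δ in grey, 30 and 40 min shaded. Between 30 and 40 min the CLB2 cluster rose in SSDDCS and the G1/S genes and core histones declined.

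Of 20 methionine and sulfate genes, 8 fell (40%) and 0 rose (median -0.67), against 10.8% and 9.35% of all genes. All 20 differences were below 0. MET6, methionine synthase, had 2054, 3143, 1784 and 2662 at 40 min, against 7267, 6473, 5468 and 5489 at 30 min. The groups did not overlap, as the naming rule required for the largest declines, and the difference was -1.38 (limma SE 0.41, adjusted p = 0.00718). MET3, ATP sulfurylase, had 551, 776, 472 and 621 at 40 min, against 2036, 1504, 1104 and 1100.4 at 30 min and changed by -1.22 (limma SE 0.29, adjusted p = 0.000836), and SAM2, which makes S-adenosylmethionine, fell (-1.15, adjusted p = 0.00714). MET6 and SAM2 lost their calls without each culture, with adjusted p of 0.0119 to 0.0642 and 0.0146 to 0.0747, and MET3 without culture 1 or 3, with adjusted p of 0.0264 and 0.0113. Without cultures 1, 2, 3 and 4 in turn, 1, 4, 1 and 5 members were called. Of 15 phosphate genes tested, 7 fell and 1 rose (median -0.44), 46.7% and 6.67% of the list. PHO89, a phosphate transporter, had 272, 263, 139.5 and 202 at 40 min, against 522, 813, 344 and 428 at 30 min and changed by -1.24 (limma SE 0.27, adjusted p = 0.000312), with an adjusted p of 0.0105 without culture 2. SPL2, which acts on low-affinity phosphate uptake, had 67.9, 99.1, 72.2 and 71.7 at 40 min, against 136, 259.8, 113 and 150.3 at 30 min. Its 4 values at 40 min lay below those at 30 min, with culture 2 the highest at both times, and the difference was -1.02 (limma SE 0.19, adjusted p = 2.8e-05). PHM6 differed by -0.83 (adjusted p = 0.00693, and 0.0178 to 0.0613 without each culture). PHO81, an inhibitor of the kinase Pho85, was the member that rose (0.25, adjusted p = 0.00129), a call lost without culture 2, at adjusted p of 0.0303. In sml1Δ, 13 of 20 methionine genes and 1 of 15 phosphate genes fell, against 9.18% of all genes. None of the genes of these lists passed the test of the difference between the strains.

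Both groups are known to be served by factors that bind CACGTG, marked in capitals in the windows of MET3 (chrX:455839-456138, plus strand) and SPL2 (chrVIII:375201-375500, minus strand).
MET3: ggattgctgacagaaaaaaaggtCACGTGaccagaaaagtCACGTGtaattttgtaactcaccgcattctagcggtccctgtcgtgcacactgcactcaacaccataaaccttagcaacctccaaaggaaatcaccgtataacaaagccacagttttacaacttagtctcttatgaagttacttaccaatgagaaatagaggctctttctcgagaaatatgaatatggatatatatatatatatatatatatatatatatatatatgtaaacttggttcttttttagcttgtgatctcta
SPL2: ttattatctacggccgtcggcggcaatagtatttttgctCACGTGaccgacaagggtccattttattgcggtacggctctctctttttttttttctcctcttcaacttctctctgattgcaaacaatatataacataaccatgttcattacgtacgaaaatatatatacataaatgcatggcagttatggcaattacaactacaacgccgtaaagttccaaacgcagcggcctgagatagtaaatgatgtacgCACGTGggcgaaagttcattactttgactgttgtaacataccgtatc
CACGTG was in 4.60% of all windows, in 15 of 20 methionine and sulfate genes (75%) and in 11 of 15 phosphate genes (73.3%). Its windows had a median difference of -0.04, against -0.02 for windows without it. The window of MET6 held no CACGTG.

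Of 28 ribosome biogenesis genes, 7 rose and 0 fell, against 9.35% and 10.8% of all genes. The other 21 did not pass, and all 28 differences were above 0, with a median of 0.26. By culture the median was 0.33, 0.43, 0.21 and 0.14. RRP5, a ribosomal RNA processing factor, had 3353, 2932, 3145 and 2577 at 40 min, against 2216, 1847, 2075 and 1996 at 30 min. These values did not overlap, and the difference was 0.56 (limma SE 0.12, adjusted p = 0.000297). The helicase genes DRS1 (0.49, adjusted p = 0.00393) and MAK5 (0.48, adjusted p = 0.00141) were the next. DRS1 was lost without culture 1, 2 or 3, with adjusted p of 0.0235 to 0.0373, and MAK5 without culture 1 or 2, with adjusted p of 0.0255 and 0.0142. The counts were small and varied, with 1, 1, 2 and 8 members called without cultures 1, 2, 3 and 4 in turn, 2 with equal library totals, 3 under quantile normalization and 0 without pairing by culture. In sml1Δ none of the 28 was called, against 7.43% of all genes that rose, and the median was 0.11. None of the 28 passed the test of the difference between the strains. The window of RRP5 (chrXIII:731224-731523, minus strand) shows in capitals AAAATTTT and GATGAG, the RRPE and PAC elements of this regulon, with 1 pair of overlapping GATGAG copies.
RRP5: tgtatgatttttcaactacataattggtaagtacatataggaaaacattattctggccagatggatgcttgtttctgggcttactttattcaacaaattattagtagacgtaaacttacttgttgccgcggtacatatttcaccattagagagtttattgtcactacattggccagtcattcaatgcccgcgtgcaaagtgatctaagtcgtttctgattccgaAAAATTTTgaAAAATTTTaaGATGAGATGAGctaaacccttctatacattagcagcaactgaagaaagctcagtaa
AAAATTTT was in 9.19% of all windows and in 24 of the 28 genes (85.7%), and GATGAG was in 18.3% of all windows and in 22 of the 28 (78.6%). Genes with AAAATTTT had a median difference of 0.13 (534 genes), against -0.04 without it. It was in 12.5% of the windows of genes that rose and 3.93% of those that fell.

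Of 138 ribosomal protein genes, 20 rose (14.5%, against 9.35% of all genes) and 0 fell (median 0.14), and 132 differences were above 0. RPS26B, the member with the largest difference of those called, had 6624, 6344, 7312 and 7049 at 40 min, against 5899.8, 4986, 6132 and 6027 at 30 min, and its difference was 0.25 (limma SE 0.06, adjusted p = 0.0013), with adjusted p of 0.0198 without culture 2 and 0.0112 without culture 3. RPS12 (0.23, adjusted p = 0.00201) and RPS3 (0.23, adjusted p = 0.00135) were close to it, with adjusted p of 0.0105 to 0.0228 without each culture for RPS12 and 0.0106 to 0.0176 without culture 1, 2 or 3 for RPS3. Without cultures 1, 2, 3 and 4 in turn 1, 1, 0 and 6 members were called, and there were 5 with equal library totals, 1 under quantile normalization and 0 without pairing by culture. Of 8 genes of galactose use and its control, 2 rose and 1 fell, 25% and 12.5% of the list, against 9.35% and 10.8% of all genes. GAL10 had 64113, 60951, 65792 and 75903 at 40 min, against 45813, 44556, 43686 and 46554 at 30 min, a difference of 0.56 (limma SE 0.09, adjusted p = 3.36e-06), GAL1 differed by 0.32 (adjusted p = 0.00829), and the repressor gene GAL80 fell (-0.25, adjusted p = 0.000787). GAL1 was lost without each culture, with adjusted p of 0.0106 to 0.0557, and GAL80 without culture 2, at adjusted p of 0.023.

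**Figure D3:**
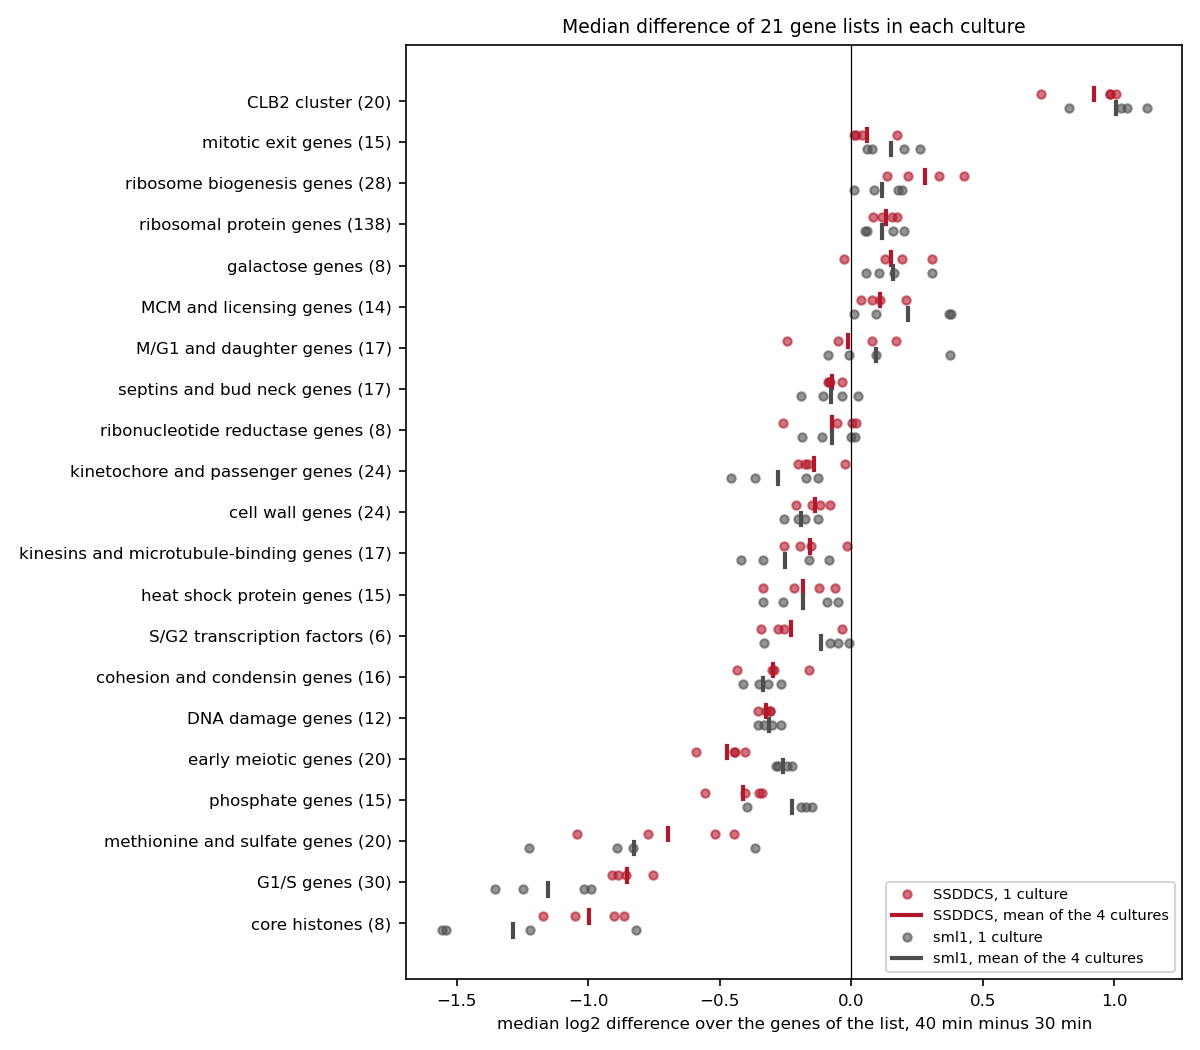
Median log2 difference between 40 and 30 min (horizontal axis) over the genes of 21 lists (number of genes tested in brackets), 1 point for each culture and a bar for the mean of the 4 cultures, SSDDCS (red) above sml1Δ (grey). The CLB2 cluster lay to the right in all SSDDCS cultures, at 0.72 to 1.01, and the G1/S genes and core histones to the left.

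Of 20 early meiotic genes, 8 fell (40%) and 0 rose (median -0.44), against 10.8% and 9.35% of all genes. In this list 18 differences were below 0. REC102, which takes part in forming meiotic double-strand breaks, had 37.0, 46.0, 23.3 and 55.7 at 40 min, against 71.3, 85.8, 64.1 and 84.8 at 30 min. Its levels were low and did not overlap, and the difference was -0.96 (limma SE 0.17, adjusted p = 1.69e-05). The meiotic recombinase gene DMC1 averaged 159 ± 30.4 at 40 min and 276 ± 47.7 at 30 min (SD, n = 4 each), a difference of -0.79 (limma SE 0.16, adjusted p = 0.000129), and the kinase gene MEK1 differed by -0.71 (adjusted p = 0.000436), with an adjusted p of 0.0131 without culture 1. In sml1Δ 1 early meiotic gene fell, against 9.18% of all genes, and the median was -0.22. None of the 20 genes passed the test of the difference between the strains. DMC1 averaged 74.0 ± 17.1 at 40 min and 86.1 ± 13.0 at 30 min in sml1Δ. Of 14 mid and late sporulation genes 1 fell, GAS2 (-0.56, adjusted p = 0.00863), and it was lost without culture 1, 3 or 4, with adjusted p of 0.0364 to 0.0497. This was 7.14% of the list, below the share of all genes.

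Of 15 heat shock protein genes 2 fell, the Hsp70 genes SSA3 and SSA4. This was 13.3% of the list, near the 10.8% of all genes that fell. SSA4 had 1538, 1391, 962 and 1791 at 40 min, against 3032, 3473, 1932 and 3203 at 30 min, with every value at 40 min below those at 30 min, and changed by -1.04 (limma SE 0.17, adjusted p = 2.7e-06). Of 20 stress and storage carbohydrate genes 1 fell (5%, below the share of all genes), the catalase gene CTT1 (-0.58, adjusted p = 0.00139). It was lost without culture 2 or 3, with adjusted p of 0.02 and 0.0135. Of 12 DNA damage genes 4 fell (33.3%) and 0 rose (median -0.32). RFX1, a repressor of damage-inducible genes, had 333, 321, 315 and 328 at 40 min, against 488, 483, 443 and 468 at 30 min, with both groups tight and apart, and changed by -0.54 (limma SE 0.08, adjusted p = 2.69e-07). RNR3, a catalytic subunit of ribonucleotide reductase, fell (-0.60, adjusted p = 0.00269) and was lost without any 1 culture, with adjusted p of 0.0137 to 0.0235. RNR3 and RNR1 were the 2 of 8 ribonucleotide reductase genes that fell (25%), and 0 rose.

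Of 17 thiamine genes 4 fell (23.5%, against 10.8% of all genes), with a median of -0.14. Among them were the transporter gene THI7 (-0.49, adjusted p = 0.00034) and the regulator THI2 (-0.64, adjusted p = 0.000421). Both were lost without culture 3, at adjusted p of 0.0114 and 0.0106. THI4 fell (-0.63, adjusted p = 0.00826) and was lost without each culture, with adjusted p of 0.019 to 0.0596. Of 11 branched-chain amino acid genes LEU1 was called (-0.46, adjusted p = 0.00773), 9.09% of the list and near the share of all genes. LEU1 had 2264, 2341, 8803 and 1859 at 40 min, against 3281, 3294, 9658 and 2997 at 30 min, with culture 3 far above the others at both times, and it was lost without culture 1, 2 or 4, with adjusted p of 0.037 to 0.063.

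Markers of other states were followed beside these groups. Of 17 pheromone-induced genes 1 fell, the agglutinin gene AGA1 (-0.53, adjusted p = 0.00436), which was lost without culture 1, 2 or 3, with adjusted p of 0.0135 to 0.0269. In this list the 5.88% that fell lay below the 10.8% of all genes. The list had a median of -0.11 and summed to 5937 to 6619 at 40 min and 6299.9 to 7193 at 30 min. Under quantile normalization that median was 0.00, on the other side of 0. None of 7 a-specific genes passed, with sums of 1475 to 2038 at 40 min and 1662 to 2214 at 30 min. Of 4 alpha-specific genes, which a MATa cell keeps low, STE3 fell, with 109, 116, 86.9 and 145 at 40 min, against 194, 155, 137 and 252 at 30 min, groups that overlapped, and a difference of -0.67 (limma SE 0.19, adjusted p = 0.00558). It was lost without culture 1, 3 or 4, with adjusted p of 0.0278 to 0.0527. The 4 alpha-specific genes summed to 666 to 884 at 40 min and 877 to 1075 at 30 min, and STE3 averaged 25.6 ± 8.45 at 40 min and 27.0 ± 2.98 at 30 min in sml1Δ. The part of such cells or states in the changes of other groups was not tested.

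Position along the chromosome went with the direction of change. Of 210 genes within 20 kb of a chromosome end, 3 rose and 45 fell, against 9.35% and 10.8% of all genes, and the median difference was -0.30. By culture that median was -0.32, -0.31, -0.32 and -0.20, and without cultures 1, 2, 3 and 4 in turn 29, 32, 33 and 38 genes fell. HXT9, a hexose transporter gene that shares sequence with its relatives, had 147, 179, 114 and 178 at 40 min, against 263, 317, 276 and 329.6 at 30 min and changed by -0.95 (limma SE 0.14, adjusted p = 3.5e-07). HXT12 fell (-0.86, adjusted p = 6.23e-05). The 3 that rose were IMD2 (0.51, adjusted p = 0.00832), COX14 (0.54, adjusted p = 0.00967) and the deacetylase gene RPD3 (0.18, adjusted p = 0.0018), and IMD2 and COX14 were lost without each culture, with adjusted p of 0.0136 to 0.0665 and 0.0178 to 0.0744. RPD3 was lost without culture 1 or 4, with adjusted p of 0.0201 and 0.0281. Of 650 genes within 50 kb, 24 rose (3.69%) and 106 fell (16.3%), with a median of -0.16. In sml1Δ 4 genes rose and 22 fell within 20 kb, against 7.43% and 9.18% of all genes, with a median of -0.18.

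Distance to the nearest of the 352 origins in the R64 annotation gave a graded pattern. Of 1476 genes under 5 kb from an origin, 66 rose and 248 fell (4.47% and 16.8%), against 9.35% and 10.8% of all genes. Of 2215 genes at 5 to 15 kb, 133 rose and 283 fell (6.0% and 12.8%), with the share that fell near that of all genes. Of 2118 genes over 15 kb away, 369 rose and 130 fell (17.4% and 6.14%), so the order of the directions was the opposite of that near origins. The median difference was -0.11, -0.05 and 0.07 over these groups. In each culture the median over genes above 15 kb exceeded that over genes under 5 kb, by 0.178, 0.190, 0.164 and 0.158 on the log2 scale. In the sml1Δ cultures the same gap was 0.0668, 0.0254, 0.00042 and 0.0516, below each SSDDCS culture. In sml1Δ, 199 genes over 15 kb away rose and 185 fell, and under 5 kb 101 rose and 139 fell. Over all genes, 7.43% rose and 9.18% fell in that strain. These groups hold many neighbouring genes, so no p-value is given for them.

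The gradient was seen with other choices of genes. In finer steps the median difference in SSDDCS ran upward with distance, at -0.13 for 0 to 2.5 kb, -0.09 for 2.5 to 5 kb, -0.03 for 10 to 15 kb, 0.05 for 15 to 20 kb, 0.08 for 20 to 25 kb and 0.13 for 30 to 40 kb. It was 0.01 in the 235 genes beyond 40 kb. Over all genes, 9.35% rose and 10.8% fell. With genes within 50 kb of a chromosome end left out, 63 of 1274 genes near origins rose and 210 fell (4.95% and 16.5%). Of 1918 distant genes in that choice, 357 rose and 101 fell (18.6% and 5.27%). With every listed gene left out, 58 of 1329 near genes rose and 217 fell (4.36% and 16.3%). Of 1964 distant genes, 348 then rose and 111 fell (17.7% and 5.65%). Making the library totals equal moved the medians to -0.15 near origins and 0.03 far from them, and quantile normalization to -0.09 and 0.10. With equal totals 38 near genes rose and 311 fell, and 250 distant genes rose and 189 fell. Without cultures 1, 2, 3 and 4 in turn, 177, 211, 234 and 256 distant genes rose and 62, 80, 74 and 83 fell, and 22, 22, 35 and 32 near genes rose and 124, 156, 132 and 169 fell.

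Measured against the G1 library of each culture, the gap between distant and near genes in SSDDCS took the values 0.05, -0.02, -0.16, -0.23, -0.18, -0.11, -0.02 and 0.01 over the 8 times between 10 and 45 min. The 4 libraries at 40 min lay between -0.04 and 0.00 and the 4 at 30 min between -0.20 and -0.15, without overlap. In sml1Δ the gap stayed between 0.00 and 0.08 as a mean at every time from 5 to 60 min. The step between 30 and 40 min in SSDDCS thus lay in the period in which a gap that was widest at 25 min narrowed.

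**Figure D4:**
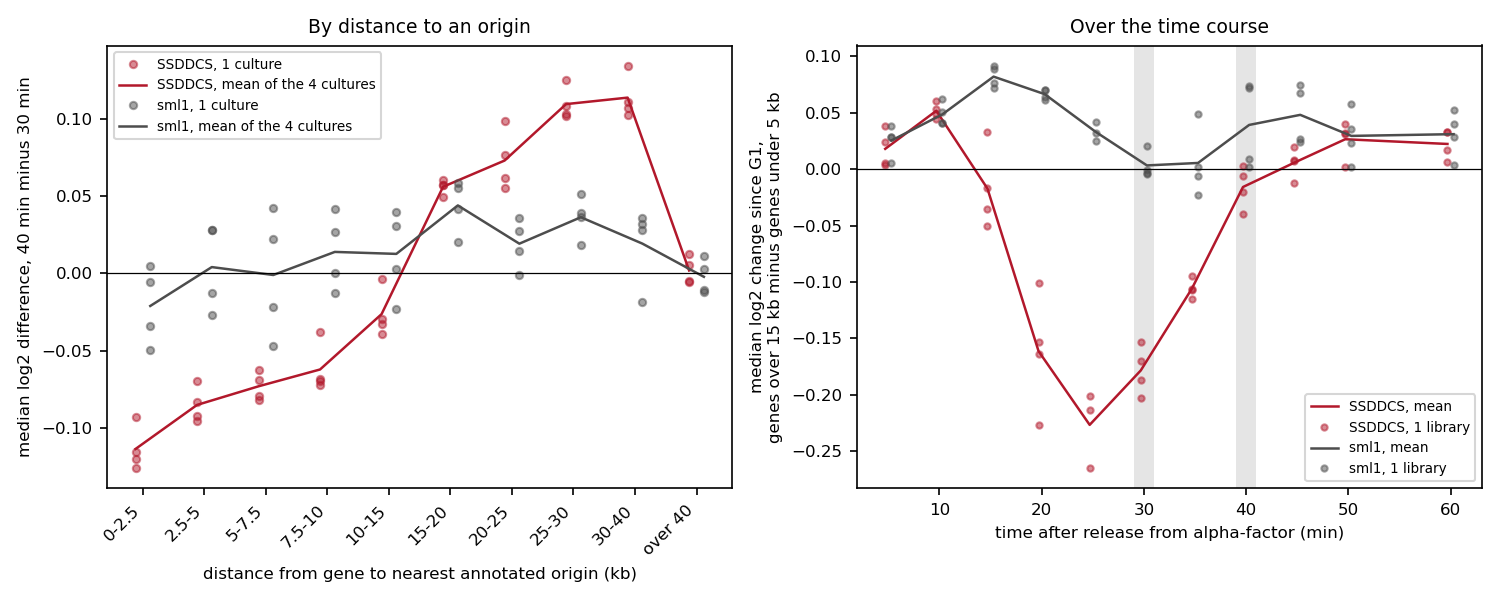
Left, median log2 difference between 40 and 30 min (vertical axis) of genes grouped by distance to the nearest annotated origin (horizontal axis, kb), 1 point for each culture and a line for the mean, SSDDCS in red and sml1Δ in grey. Right, median log2 change since G1 of genes over 15 kb away minus that of genes under 5 kb away (vertical axis) by time after release (horizontal axis, min), 1 point for each library, 30 and 40 min shaded. In SSDDCS the gap had a mean of -0.02 at 40 min, against -0.18 at 30 min.

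Much of the step was shared with the control strain. In sml1Δ 1064 genes (16.6%) were called between 40 and 30 min, 476 higher (7.43%) and 588 lower (9.18%). In all, 592 genes were called in the same direction in both strains, which is 46.0% of the SSDDCS calls and 55.6% of the sml1Δ calls, and 0 were called in opposite directions. Across genes the differences of the strains had a Pearson correlation of 0.75, a description over 6404 genes that are not independent replicates. The CLB2 cluster had the same median in sml1Δ (1.01, 18 of 20 called), and the G1/S genes (-1.11, 25 of 30 called) and core histones (-1.30, all 8 called) had medians further from 0. A test of the difference between the strains was passed by 25 genes (0.39%), 17 with a more positive and 8 with a more negative change in SSDDCS, and 885 genes had an unadjusted p under 0.05. DESeq2 gave 36 and edgeR 21. Without cultures 1, 2, 3 and 4 of SSDDCS in turn 6, 4, 10 and 4 genes passed, and 1 without pairing by culture. Of the 696 genes called in SSDDCS only, 16 passed this test, so for the others a difference between the strains was not shown.

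Each of the 8 genes with a more negative change had a higher mean in SSDDCS than in sml1Δ at 30 min. Selection by a negative strain difference favours a high value at 30 min in SSDDCS, so this describes the choice. SPS4, a gene induced in sporulation, had 244, 204, 182 and 219 at 40 min, against 174, 184, 160.2 and 246 at 30 min in SSDDCS, overlapping groups, and 445, 123, 133 and 401 at 40 min, against 96.6, 40.6, 31.2 and 103 at 30 min in sml1Δ, where every value at 40 min lay above those at 30 min. The strain difference was -1.78 (limma SE 0.38, adjusted p = 0.00553), and it was lost without each culture, with adjusted p of 0.0135 to 0.0343. WSC4 averaged 164 ± 23.3 at 40 min and 186 ± 49.2 at 30 min in SSDDCS and 265 ± 71.3 at 40 min and 99.9 ± 34.2 at 30 min in sml1Δ (SD, n = 4 each). The strain difference of WSC4 was -1.58 (limma SE 0.36, adjusted p = 0.00797), and it was lost without each culture, with adjusted p of 0.0125 to 0.0573. SSA3 had 945, 799.9, 641 and 1181 at 40 min, against 1837, 2121, 1154 and 2147 at 30 min in SSDDCS and 272, 223, 261 and 225 at 40 min, against 276, 235, 244 and 286 at 30 min in sml1Δ. In SSDDCS the lowest of the values at 30 min lay above 3 of the 4 at 40 min, and in sml1Δ all 8 lay close together. SSA3 peaked at 25 min in SSDDCS with a mean of 1889 over 3 libraries. Its strain difference of -0.93 (limma SE 0.16, adjusted p = 0.000174) was kept without each culture but not without pairing by culture (adjusted p = 0.104). YMR085W (-1.05), AAD6 (-0.51), and HFM1, a helicase gene of meiosis (-0.50), completed the 6 with the largest negative values. AAD6 was lost without each culture, YMR085W without culture 1, 2 or 4 and HFM1 without culture 3 or 4, with adjusted p of 0.0106 to 0.05 in these fits. REC102 had a strain difference of -1.03 (limma SE 0.24, adjusted p = 0.0115), just above the limit.

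Of the 17 genes with a more positive change, 14 have a position in the annotation, and all 14 lay over 15 kb from an origin, a distance that 36.5% of placed genes share. Of the 8 with a more negative change, 1 lay under 5 kb, 5 at 5 to 15 kb and 2 over 15 kb from an origin. SIR2, the silencing deacetylase, had 810.1, 852, 869 and 837 at 40 min, against 578, 579, 664 and 571 at 30 min in SSDDCS and 818, 713, 766 and 799 at 40 min, against 812, 677, 760.3 and 824 at 30 min in sml1Δ. The SSDDCS values did not overlap, with all 4 at 40 min the higher, while the sml1Δ values did, and the strain difference was 0.48 (limma SE 0.10, adjusted p = 0.00292), with adjusted p of 0.0107 to 0.0241 without culture 1, 2 or 4. LST7 averaged 394 ± 14.3 at 40 min and 286 ± 11.5 at 30 min in SSDDCS and 297 ± 29.5 at 40 min and 315 ± 30.5 at 30 min in sml1Δ (SD, n = 4 each), and the strain difference of 0.55 (limma SE 0.12, adjusted p = 0.00458) was lost without each culture, with limma adjusted p of 0.0104 to 0.0257. SMD2, a core component of spliceosomal particles, differed by 0.49 (limma SE 0.11, adjusted p = 0.00797), and did not pass with DESeq2 or edgeR, nor without culture 2, 3 or 4, with adjusted p of 0.0252 to 0.0726. GWT1, which acts in the synthesis of GPI anchors, lies 204 bases downstream of DPB11 on the same strand. It averaged 201 ± 3.0 at 40 min and 196 ± 27.5 at 30 min in SSDDCS and 427 ± 63.7 at 40 min and 752 ± 88.4 at 30 min in sml1Δ (SD, n = 4 each), a strain difference of 0.87 (limma SE 0.14, adjusted p = 9.1e-05). YDR008C and YDR053W carry systematic names next to TRP1 and DBF4, both present in the constructs, and differed by 0.56 and 0.64. YDR008C averaged 3321 at 40 min and 2435 at 30 min in SSDDCS, against 179 and 192 in sml1Δ. YDR053W averaged 3773 and 3156 in SSDDCS, against 180 and 234 in sml1Δ. Their reads may come from the added copies, which was not tested, and both genes remain among the 17 counted. GWT1 passed without each culture, while YDR008C was lost without each and YDR053W without culture 1, 2 or 3, with adjusted p of 0.0103 to 0.0568 in these fits.

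**Figure D5:**
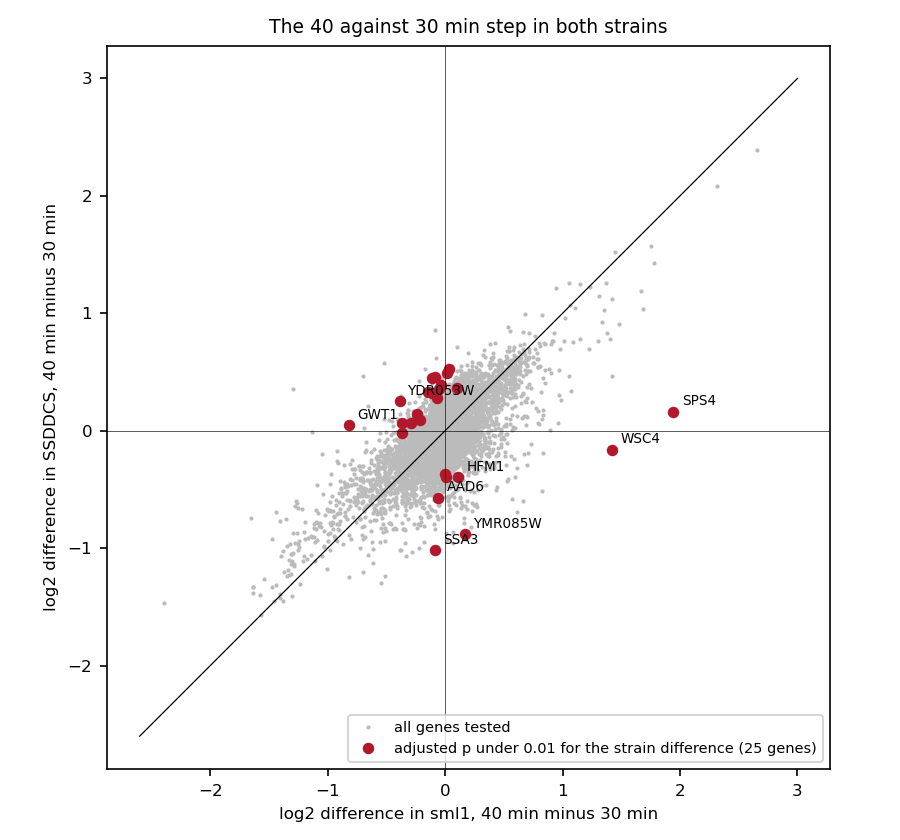
Log2 difference between 40 and 30 min in SSDDCS (vertical axis) against that in sml1Δ (horizontal axis), 1 grey point for each gene tested, with the line of equal change. The 25 genes that passed the test of the difference are in red, and 8 of those with a strain difference beyond 0.5 in size are named, with SPS4 and WSC4 to the lower right and GWT1 to the left.

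The over-expressed factors were left out of all counts, because their reads come from the added copies as well as the native genes. DPB11 had 31404, 32733, 32368 and 34230.1 at 40 min, against 20076, 21643, 20898 and 22269.7 at 30 min, without overlap, a difference of 0.62 (limma SE 0.08, adjusted p = 5.03e-08). DBF4 differed by 0.30 (adjusted p = 0.000368) and SLD7 by 0.34 (adjusted p = 0.00271), and CDC45, SLD2 and SLD3 did not pass, at adjusted p of 0.0989, 0.0227 and 0.0345. DBF4 was lost without culture 3, at adjusted p of 0.0122, and under quantile normalization, at adjusted p of 0.144, and SLD7 without each culture, at adjusted p of 0.0104 to 0.0534. In sml1Δ CDC45 averaged 233 ± 67.8 at 40 min and 559 ± 81.4 at 30 min (SD, n = 4 each) and SLD2 219 ± 42.5 at 40 min and 353 ± 46.1 at 30 min, and the strain differences were 1.64 (limma SE 0.24, adjusted p = 9.29e-06) for CDC45, 1.16 (limma SE 0.23, adjusted p = 0.00264) for SLD2, 0.70 (limma SE 0.12, adjusted p = 0.000123) for DPB11 and 0.67 (limma SE 0.09, adjusted p = 3.43e-06) for DBF4. That of SLD2 was lost without each culture, with adjusted p of 0.0125 to 0.0257. The differences in SSDDCS itself were all above 0, between 0.29 and 0.62.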

How the data were processed

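RNA-seq libraries of synchronised SSDDCS and sml1Δ cultures were analysed from the deposited table of signal values, for which the authors aligned reads to S288C (R64), counted them by gene and divided each library by its DESeq2 size factor. The submitters' notes also name cutadapt and TopHat2 2.0.6. Of 96 columns, 94 matched a sample and 2 were not used. The table lists 6444 genes, and all values gave whole reads to within 0.001, so reads could be recovered for the alternative count tests. Total reads in genes were 8119387 to 21677438. Strand use and the treatment of reads with several positions are not given in the sources used here.

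Tests covered the 6414 genes whose mean reached 10 (of which 10 carried by the constructs were left out of counts) with limma 3.58.1 (R 4.3.3), with a mean-variance trend, on log2(value + 1). Fold changes of low genes are understated on that scale. The fit used all 94 libraries, a mean for each strain and time, and culture as a block (64 residual degrees of freedom). Adjusted p-values are Benjamini-Hochberg over all genes tested, with calls under 0.01. The numbers pair libraries because 1 culture was sampled over time, and the deviations of same-numbered libraries at 40 and 30 min correlated at 0.61, 0.30, 0.62 and 0.56. The labels do not say that cultures of a strain were independent in other ways. With culture as a block, steady differences between cultures are removed. The p-values thus measure how unevenly cultures changed over time, pooled over both strains and all times. On simulated counts the fit recovered 98% of 100 genes changed 2-fold and 67% of 100 changed by 0.5 on the log2 scale, with 1 false call. Each simulated culture had an effect that was constant over time, so cultures moving at different speeds were not covered. The false call is therefore not an error rate for the real calls.

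The named genes were the 12 with the largest difference in each direction among genes called, a group mean that reached 50, without overlap and moving the same way in each culture, the 6 with the largest strain difference in each direction, all core histones, CLB2 cluster genes, cyclins, S/G2 factors and over-expressed factors, and in other lists the 3 called members with the largest difference and up to 3 that moved against the list. The members and lists were chosen with earlier results of these data known. The alternatives tried were DESeq2 1.42.0, edgeR 4.0.16, other scalings, pseudocounts, filters and sets of libraries. Names, positions, origins and sequences came from RefSeq R64, which matched 5844 genes. The values of SML1 and a few other genes are not reported here.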

Additional observations from a re-analysis of the deposited data

Results flagged for a closer look

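In groups of 4 libraries, the gap of the farthest library to its nearest neighbour was divided by the range of the group, and libraries beyond the 95% critical value of Dixon were marked. This was so for 17 of 256 groups, and chance marks about 1 in 20. Reads in genes at 40 min gave 0.839. At 40 min in SSDDCS, culture 2 stood above the others for PCL1 (0.850), SVS1 (0.869), MCD1 (0.895) and SPL2 (0.862) and below them for RPS3 (0.933). Culture 3 stood above the others for BUD3 (0.914) and LEU1 (0.931), and culture 4 stood above them for DBF2 (0.958) and below them for FKH2 (0.832). At 30 min, culture 4 stood above the others for HOF1 (0.854) and ASE1 (0.887), culture 1 for IRC15 (0.839), culture 2 for CRH1 (0.883), and culture 3 for LEU1 (0.955) and SIR2 (0.917), and culture 2 stood below them for SFG1 (0.915).

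The change in SSDDCS minus that in sml1Δ passed the limma test for 25 genes. Among those named, it was negative for SPS4 (-1.78), WSC4 (-1.58), YMR085W (-1.05), SSA3 (-0.93), AAD6 (-0.51) and HFM1 (-0.50). It was positive for GWT1 (0.87), YDR053W (0.64), YDR008C (0.56), LST7 (0.55), SMD2 (0.49) and SIR2 (0.48). Of the over-expressed factors, which are outside that count, it passed for CDC45 (1.64), SLD2 (1.16), DPB11 (0.70) and DBF4 (0.67).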

How the results depend on the processing

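Counts over all genes were within 1.5 times the value given under DESeq2, edgeR, other pseudocounts, no filter and SSDDCS libraries alone. Of the 72 counts of list members that rose or fell, this did not hold for 4 with DESeq2, 3 with edgeR, 7 under quantile normalization, 13 each with equal library totals and SSDDCS libraries alone, 33 with the 30 and 40 min libraries alone, 34 without the replicate block and 21 to 33 without 1 culture, and it held for all 72 under the other pseudocounts and no filter. DESeq2 called 4 mid and late sporulation genes lower. With SSDDCS libraries alone 41 ribosomal protein genes rose, and 5 kinesin and 7 kinetochore genes fell. Without the replicate block 3 core histones, 3 methionine, 2 phosphate, 4 early meiotic and 4 cohesion genes fell, 23 genes within 20 kb of a chromosome end fell and 0 rose, and 15 CLB2 cluster genes rose and 20 G1/S genes fell. Equal library totals gave 389 genes higher at 40 min (29.6% of those called) and 15 with a strain difference. Without the replicate block, 484 genes were called in SSDDCS (190 higher and 294 lower), 476 in sml1Δ, and 1 had a strain difference. Strain differences numbered 46 under quantile normalization, 22 of them among the 25 reported, and 52 with the 30 and 40 min libraries alone, of which 9 were among the 25. Leaving out 1 SSDDCS culture at a time gave 606 to 845 genes called, 261 to 387 higher and 345 to 458 lower, and 4 to 10 with a strain difference. The difference of FKH2 was -0.0217 with equal totals and -0.0264 to 0.0531 without 1 culture, that of GWT1 -0.0241 to 0.147 without 1 culture, and the median of the pheromone-induced genes was 0.00137 under quantile normalization. The cause of these changes was not tested. Of 109 named genes called, 58 kept their call without each culture and 54 under every alternative tried. The 8 libraries held 8611450 reads or more, and pairs within a group differed by a chi-square per degree of freedom of 16.3 to 30.7 pooled over genes, while counting error was not set against the spread between cultures for single genes.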
